A study of Mus musculus with 9 samples.

Results

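Ets1 was mapped by CUT&Tag in beige adipocytes made in culture (beige) and in mature adipocytes taken from cold-exposed mice (cold stress, CS), and the 2 deposited peak lists were set against each other. A peak was shared when it overlapped a peak of the other list by at least 1 bp, and promoter peaks, those within 1 kb of the transcription start site (TSS) of a protein-coding gene, were kept apart from all other peaks. The lists held 30553 beige peaks and 14858 CS peaks, together 45411 of the 454996 peaks in the 9 lists of the series. Promoters were often common to both preparations, while sites away from promoters were mostly absent from the other list. The non-promoter sites of the beige list lay mostly in chromatin that is open in adipocytes, and 30.1% of those absent from CS carried the sequence of the AP-1 factors, while those of the CS list mostly had neither.

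Ets1 belongs to the ETS family, whose members share a winged helix-turn-helix domain that reads a short GGAA core, and many family members bind promoters of broadly expressed genes. On enhancers ETS factors often sit beside other factors, among them AP-1, the dimers of Fos and Jun proteins that answer to growth factors, stress and serum. Beige adipocytes are fat cells of white depots that burn fuel for heat through uncoupling and futile cycles, and they arise in the cold or from stromal progenitors under hormones. In CUT&Tag an antibody tethers a transposase to its target in intact nuclei, and open DNA can be cut to some extent without the target.

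The beige cells came from the stromal vascular fraction of inguinal white fat (iWAT, the fat pad of the groin) of wild type C57 male mice aged 3 to 4 weeks. They were induced with insulin, dexamethasone (5 µM), T3 (1 nM), rosiglitazone (1 µM) and IBMX (0.5 mM) for 48 h, then kept in insulin, T3 and rosiglitazone, and were analysed 6 days after induction began. The CS cells were the floating adipocytes of iWAT of wild type C57 male mice aged 8 to 10 weeks after 7 days in the cold. Both libraries used 100000 nuclei, and neither group had a replicate, so no difference was tested, the spread between animals or cultures is unknown, and intervals below are Wilson 95% intervals that cover counting error only. Age, culture, hormones and cold differ together between the groups and cannot be told apart. The culture dish can also hold cells that failed to differentiate and the floating fraction can carry other cells, and a peak in few cells cannot be told apart from a weak peak in all of them. For context the peaks were overlapped with lists from other mice of the series: open chromatin by ATAC (88977 peaks, 73.4 Mb) and acetylated histone H3K27 (86834 peaks) in iWAT adipocytes of Flox mice (controls of an Ets1 knock-out), H3K27ac in EC+/+ adipocytes (controls of a knock-in, 33713 peaks) and Ets1 in adipocytes of wild type mice at room temperature (RT, 4056 peaks). All of these mice were 8 to 10 weeks old, like the CS mice and unlike the donors of the beige cells.

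The sequences that separate the classes are shown first, as 101 bases of the plus strand of mm10 centred on a summit, with the matched letters in capitals. At shared promoters the ETS sequence CCGGAAGT, or its reverse complement ACTTCCGG, was more frequent than at other peaks. Peaks are ranked by −log10 q, where q is the false discovery rate the peak caller gave each peak, a value that depends on depth and is read only within a list. The following are the 3 beige peaks of highest −log10 q among shared promoters not mostly in repeats that hold it within 50 bp of the summit.
Mgat1 promoter, chr11:49244101-49244201: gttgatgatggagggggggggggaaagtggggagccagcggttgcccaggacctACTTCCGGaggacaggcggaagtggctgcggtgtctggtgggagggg
Ddit3 promoter, chr10:127290593-127290693: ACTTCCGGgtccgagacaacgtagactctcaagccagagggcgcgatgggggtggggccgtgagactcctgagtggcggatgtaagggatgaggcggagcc
Shc1 promoter, chr3:89418480-89418580: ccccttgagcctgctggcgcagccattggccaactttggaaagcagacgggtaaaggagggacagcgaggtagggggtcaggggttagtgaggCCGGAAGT
Mgat1 encodes an enzyme of N-glycan synthesis, Ddit3 the stress factor CHOP and Shc1 a signalling adaptor. Their beige peaks had −log10 q of 295.1, 178.4 and 175.7, and all 3 lay in ATAC peaks.

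Away from promoters, beige peaks with no CS peak held the AP-1 sequence TGANTCA, which reads nearly the same on both strands. The 4 peaks of highest −log10 q that carry it within 50 bp of the summit were these.
Prss56, upstream, chr1:87181007-87181107: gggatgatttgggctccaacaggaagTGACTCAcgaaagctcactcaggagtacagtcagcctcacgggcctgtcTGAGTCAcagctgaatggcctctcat
Mrpl33, upstream, chr5:31576799-31576899: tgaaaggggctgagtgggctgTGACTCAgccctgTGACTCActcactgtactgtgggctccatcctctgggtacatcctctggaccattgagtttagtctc
S100a10, beyond the start, chr3:93597342-93597442: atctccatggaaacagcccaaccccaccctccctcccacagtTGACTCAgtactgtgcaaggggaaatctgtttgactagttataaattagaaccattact
Runx1, intron, chr16:92620845-92620945: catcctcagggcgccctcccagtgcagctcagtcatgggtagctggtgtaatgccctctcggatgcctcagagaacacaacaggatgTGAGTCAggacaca
Prss56 encodes a protease, Mrpl33 a protein of the mitochondrial ribosome, S100a10 a partner of annexin A2, and Runx1 a transcription factor. The summits lay −2256, −20086, 36665 and 74600 bp from the nearest TSS, where a minus sign means upstream. The −log10 q values were 162.8, 129.8, 124.7 and 113.8. At Prss56 and at Mrpl33 the window held a pair of AP-1 sequences, and all 4 peaks lay in ATAC peaks while none met an RT peak.

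For CS peaks with no beige peak, the set gives 2 of the 3 strongest non-promoter peaks, the strongest with a run of alternating C and A (capitals), and the strongest promoter peak that lies in open chromatin and outside repeats.
Scaf8, upstream, chr17:3029900-3030000: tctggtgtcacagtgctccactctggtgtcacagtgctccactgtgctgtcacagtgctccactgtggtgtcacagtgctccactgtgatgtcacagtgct
Gm3460, upstream, chr14:6637277-6637377: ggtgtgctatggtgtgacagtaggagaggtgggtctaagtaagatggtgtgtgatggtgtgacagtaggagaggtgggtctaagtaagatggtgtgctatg
Gpm6a, intergenic, chr8:55121449-55121549: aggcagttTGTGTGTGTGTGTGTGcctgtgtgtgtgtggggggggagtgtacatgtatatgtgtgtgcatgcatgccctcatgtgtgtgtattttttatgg
Cd82 promoter, chr2:93462556-93462656: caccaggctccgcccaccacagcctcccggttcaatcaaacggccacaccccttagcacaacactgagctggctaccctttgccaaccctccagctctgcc
The Scaf8 and Gm3460 sequences are tandem repeats of a short unit, and 75.6% and 100.0% of the 201 bases around their summits are masked as repeats. Their −log10 q was 270.1 and 68.8, and both met an RT peak. Gpm6a, which encodes a membrane glycoprotein of neurons, was the nearest gene to the CA run at 166656 bp (58.7, also an RT peak). The Cd82 window, from the promoter of a tetraspanin, held no ETS or AP-1 match, and its peak (19.4) lay in an ATAC peak without an RT peak.

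Of the 4 promoters that the study tested in reporter assays, the 2 with the short core CGGAA (capitals) in the 101 bases around both summits are printed, to show 1 gene in both lists. The 101-base windows of the other 2, Atg10 and Sdhb, held no CGGAA at either summit. Within 100 bp of each summit Sdhb had 1 CGGAA and Atg10 had 0. The Sdhb windows also hold GGAA after an A, and the study describes the core as GGAA or GGAT.
Atg9a promoter, beige summit, chr1:75192044-75192144: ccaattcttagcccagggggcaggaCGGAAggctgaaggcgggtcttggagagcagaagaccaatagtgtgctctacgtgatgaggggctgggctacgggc
Atg9a promoter, CS summit, chr1:75192057-75192157: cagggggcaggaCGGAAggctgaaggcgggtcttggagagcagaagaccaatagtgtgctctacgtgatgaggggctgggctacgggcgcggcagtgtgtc
Uqcr10 promoter, beige summit, chr11:4704560-4704660: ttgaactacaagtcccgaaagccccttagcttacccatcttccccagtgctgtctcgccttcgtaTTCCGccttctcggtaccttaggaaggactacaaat
Uqcr10 promoter, CS summit, chr11:4704066-4704166: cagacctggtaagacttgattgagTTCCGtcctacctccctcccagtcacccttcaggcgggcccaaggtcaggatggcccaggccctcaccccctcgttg
At Atg9a, the lipid scramblase of autophagy, the summits lay 13 bp apart and both windows hold the same core. Both of these summits were nearest to the TSS of the neighbouring gene Ankzf1. At Uqcr10, a subunit of respiratory complex III, the best peaks did not overlap. Their summits were 494 bp apart, and each window holds a core of its own. The beige summit was nearest to the TSS of the neighbouring gene Zmat5.

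Promoter peaks were shared far more often than peaks elsewhere. Of 11068 beige promoter peaks 5464 (49.4%, 48.4 to 50.3) overlapped a CS peak, against 5484 of 6935 CS promoter peaks (79.1%, 78.1 to 80.0) that overlapped a beige peak. Elsewhere the counts were 1047 of 19485 beige peaks (5.37%, 5.07 to 5.70) and 1060 of 7923 CS peaks (13.4%, 12.7 to 14.2). All 3 kinds of place outside promoters were low, with 6.63% of beige peaks shared in exons, 4.07% in introns and 6.38% in intergenic sequence, and 14.3%, 12.0% and 14.2% of CS peaks. The step lay close to the TSS. Within 1 kb 50.1% of beige and 79.7% of CS summits were shared, and at 1 to 3 kb 7.47% and 23.7%. Beyond 100 kb the shares were 4.39% and 5.86%. With the same number of best peaks in both lists the promoter shares became 62.2% for beige and 67.6% for CS, and the shares elsewhere 8.80% and 8.51%. The gap between promoters and other sites stood with lists of equal size, and the higher shares of the CS list did not stand away from promoters.

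**Figure D1:**
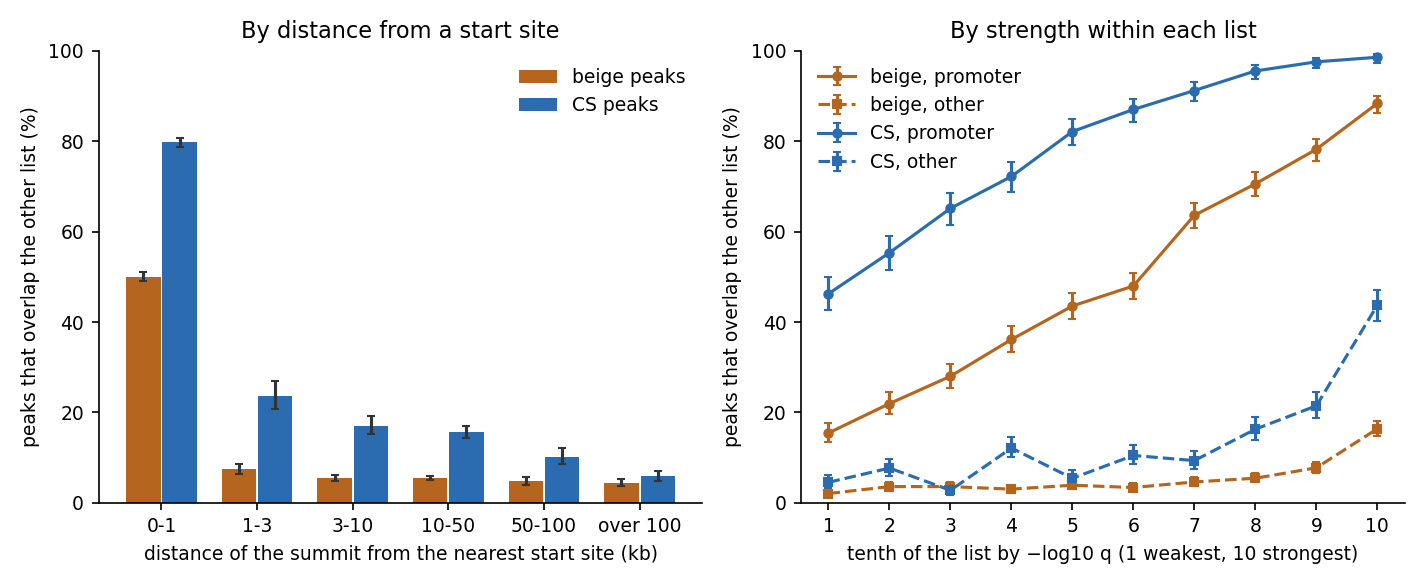
Share of peaks that overlap the other list by at least 1 bp, for beige peaks (brown) and CS peaks (blue), by distance of the summit from the nearest TSS in kb (left) and in steps of 10% of each list's promoter or other peaks ranked by −log10 q (right, solid lines for promoters and dashed lines for other peaks); bars and whiskers give the share and its Wilson 95% interval. Within 1 kb of a TSS 50.1% of beige and 79.7% of CS peaks were shared, and the strongest 10% of promoter peaks reached 88.3% and 98.6%.

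Strong peaks were shared more often than weak ones in each class. From the weakest to the strongest 10% the share ran from 15.5% to 88.3% for beige promoter peaks and from 46.3% to 98.6% for CS promoter peaks. Other beige peaks ran from 2.05% to 16.4% and other CS peaks from 4.54% to 43.7%, with no steady climb in the lower part of the list. Of the 792 strongest non-promoter CS peaks, 59.2% met an RT peak and 36.9% an ATAC peak. In the strongest 10% of non-promoter beige peaks 4.93% met an RT peak and 98.2% an ATAC peak. The strongest part of the CS list away from promoters was thus mostly present in RT adipocytes and lay largely outside the ATAC peaks of Flox, whereas for the beige list both shares ran the other way.

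Shared peaks formed 6636 overlapping pairs. Their summits lay a median of 82 bp apart, 56.9% lay within 100 bp, and 62.1% of pairs were wider in beige. Across the 5579 promoter pairs the −log10 q values of the lists rose together (Spearman 0.462, given as a description, since the points share their genome position, base composition and library). Across the 1057 other pairs the value was 0.166. When sharing required summits within 100 bp, 28.6% of beige and 45.6% of CS promoter peaks remained, so many promoters had a peak in both lists without a common summit. Beige peaks that met several CS peaks numbered 122, and 90 CS peaks met several beige peaks. Shared peaks were also the stronger ones within a list. The median beige −log10 q was 20.3 at shared promoters, 6.87 at unshared promoters, 9.55 at shared other sites and 5.21 at unshared other sites. In the CS list the medians were 5.69, 2.88, 4.51 and 2.87.

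Open and acetylated chromatin of adipocytes set the unshared classes apart. At promoters 92.4% of unshared beige peaks met a Flox ATAC peak, against 68.6% of unshared CS peaks. At other sites it was 14747 of 18438 unshared beige peaks (80.0%), against 729 of 6863 unshared CS peaks (10.6%). H3K27ac of Flox covered 68.4% of the unshared other beige peaks and 32.6% of the unshared other CS peaks. The order was reversed for H3K27ac of EC+/+, a list with fewer peaks, at 9.16% of beige and 20.7% of CS peaks. RT peaks were met by 60 of the unshared other beige peaks (0.325%) and by 827 of the unshared other CS peaks (12.1%). The shared non-promoter peaks joined both features. Of those in the beige list 785 of 1047 met an ATAC peak, 88.9% an H3K27ac peak of Flox and 25.8% an RT peak. When only peaks in Flox ATAC were kept, 51.8% of other CS peaks were shared (792 of 1528), against 13.4% of all other CS peaks, while the share of other beige peaks was 5.03%. The Flox list comes from adipocytes of fat and not from culture, so the beige overlap with it spans a difference in preparation.

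**Figure D2:**
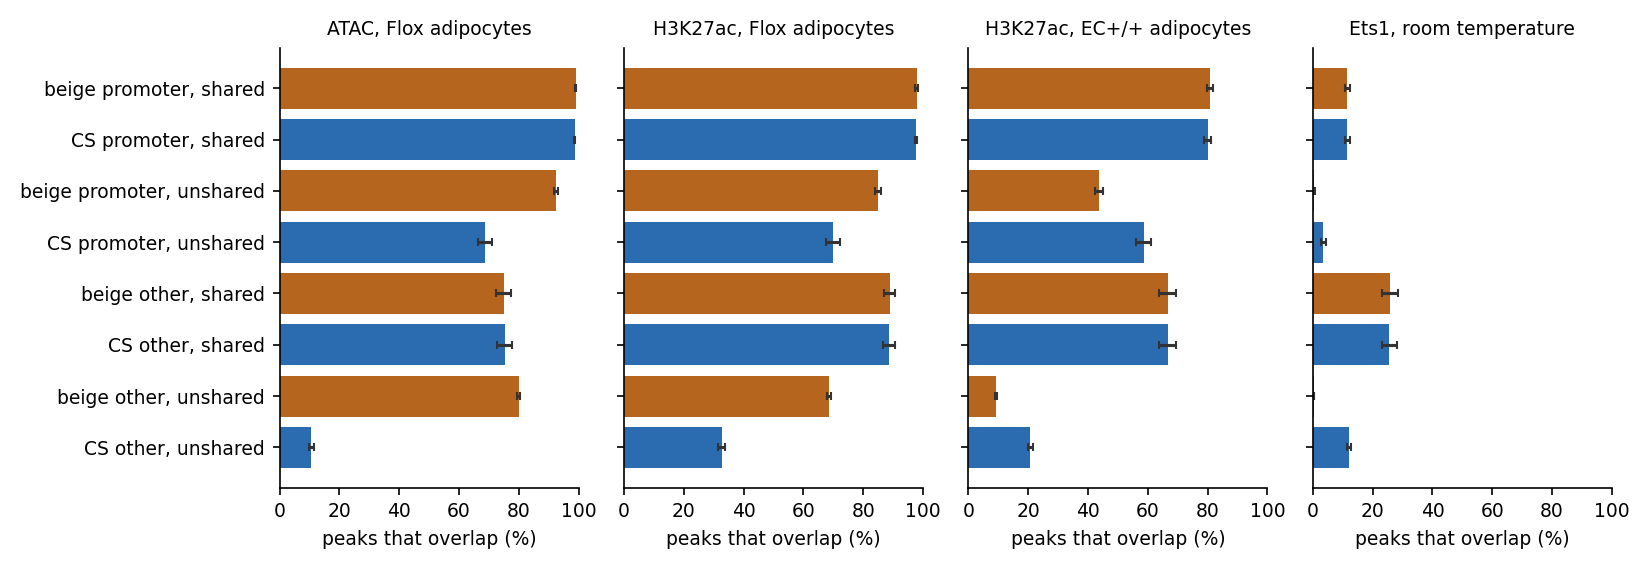
Share of beige peaks (brown) and CS peaks (blue) that overlap Flox ATAC, Flox H3K27ac, EC+/+ H3K27ac and RT Ets1 peaks, for promoter and other peaks that overlap the other Ets1 list (shared) or do not (unshared), with Wilson 95% intervals as whiskers. Unshared other peaks differ most in ATAC, with 80.0% of beige and 10.6% of CS peaks.

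Repeats took a larger part of the CS sites. More than 50% of the 201 bases around the summit were masked as repeats in 7.04% of unshared other beige peaks and 28.9% of unshared other CS peaks. Among unshared CS peaks outside ATAC it was 31.0%, and inside ATAC 11.1%. Among shared other peaks of the beige list it was 8.15% inside ATAC and 53.4% outside. The shared peaks outside ATAC also met an RT peak in 56.1% of 262 cases. The highest −log10 q of shared beige peaks away from promoters, 1014.0 at 82195 bp from Tmem196, lay wholly in masked sequence and met an RT peak. Without mostly masked summits, an alternative chosen after the data were seen, 4.58% of other beige and 14.6% of other CS peaks were shared. Whether such peaks come from reads that map to many copies was not tested.

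AP-1 sequences marked the beige sites away from promoters. The 201 bases around the summit held TGANTCA in 5543 of 18438 unshared other beige peaks (30.1%, 29.4 to 30.7), against 297 of 6863 unshared other CS peaks (4.33%, 3.87 to 4.84). Windows of the same length 1 kb away on either side held it in 5.98% and 5.83%, and windows at all TSS in 4.12%. The share was therefore well above its surroundings in beige and slightly below them in CS. At shared other sites it was 11.8% around beige summits and 8.40% around CS summits. Unshared beige promoter peaks had it in 9.67% and unshared CS promoter peaks in 3.52%. Within ATAC peaks, unshared other sites kept the contrast, with 34.8% of 14747 in beige and 6.04% of 729 in CS. With the same number of best peaks the shares were 40.3% and 4.37%. In windows of 50 bp on each side of the summit they were 17.9% and 1.95%.

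Away from promoters, beige sites carried the AP-1 sequence more often the stronger they were. In steps of 10% of all other beige peaks the share ran from 11.6% in the weakest to 40.0% in the strongest, while other CS peaks ran from 6.56% to 2.65%. At beige promoter peaks the share did not rise with strength, with 5.15% in the weakest and 4.70% in the strongest step and a highest value of 8.85% in the 3rd. Where present in an unshared other beige peak, the nearest match had its centre a median of 39 bp from the summit, and 32.8% lay within 25 bp. In windows 1 kb away the median was 48 bp from the window's centre and 27.2% lay within 25 bp, so the matches were drawn only modestly toward summits. TEAD (ACATTCC, the sequence of the partners of YAP) was found in 6.47% of unshared other beige windows and 2.01% of CS windows, beside 2.75% and 2.64% at 1 kb. RUNX (TGTGGTT) was found in 7.24% and 4.62%, beside 5.19% and 4.85%. C/EBP (TTGCNNAA), the sequence of factors that drive fat cell differentiation, was found in 10.5% and 4.30%, beside 7.66% and 8.12%. Runs of 8 CA or TG units were found in 6.00% of beige and 9.79% of CS windows, beside 3.17% and 2.93%. All letters were searched on both strands, and a match is a description of the sequence and not a bound site.

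**Figure D3:**
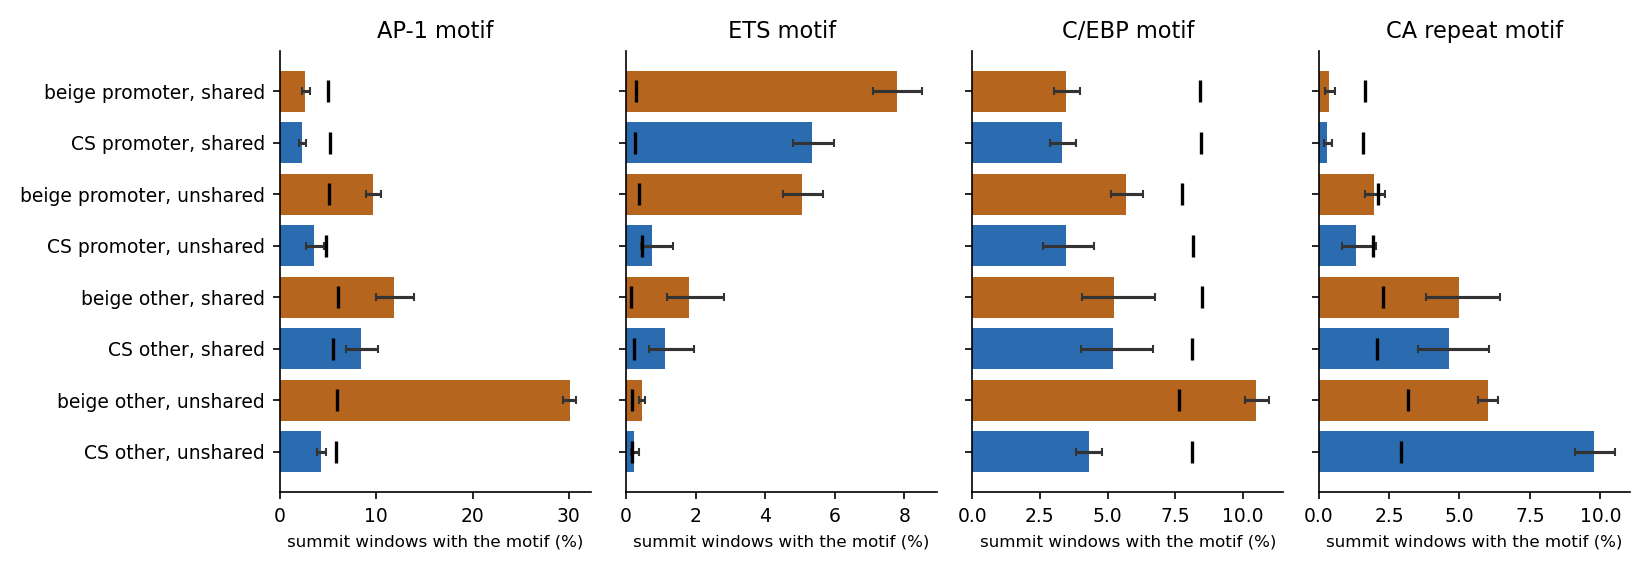
Share of 201-base windows around summits that hold each sequence on either strand, for beige peaks (brown) and CS peaks (blue) by place and by overlap with the other list, with Wilson 95% intervals as whiskers; black ticks give the share in windows 1 kb away. AP-1 reaches 30.1% at unshared other beige peaks and 4.33% at unshared other CS peaks, and within each list the ETS sequence is most frequent at shared promoters.

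The ETS sequence CCGGAAGT was found mainly at promoters, and forms of it without CG were not searched. CCGGAAGT stood in 7.78% (7.10 to 8.52) of shared promoter windows of the beige list and in 5.36% (4.80 to 5.99) of those of the CS list, beside 3.54% of windows at all TSS and under 0.5% of windows 1 kb away. Unshared promoter windows held it in 5.07% in beige and in 0.758% (0.424 to 1.35) in CS. Away from promoters it was rare in both, in 0.450% of unshared beige windows and 0.219% of unshared CS windows. Both this sequence and the core CGGAA contain CG. The median number of CG per window was 18 at shared promoters and 2 at unshared other sites in each list. The shorter core CGGAA, which lies within the longer sequence, was found in 45.2% of shared and 31.6% of unshared beige promoter windows and in 40.8% and 20.4% of the same CS windows, beside 26.4% at all TSS. By strength the ETS share ran from 1.27% in the weakest 10% of beige promoter peaks to 10.5% in the 8th step of 10% and 8.50% in the strongest, and in CS from 2.74% to 4.76%. Matches at shared beige promoters lay a median of 43.5 bp from the summit and were spread over the window, with 23.1% within 25 bp. Some other promoter sequences were likewise more frequent at shared than at unshared promoters of each list. GGGGCGGGG, read by SP and KLF factors, stood in 23.1% of shared and 12.5% of unshared beige promoter windows and in 18.1% and 6.48% of CS windows, and NRF1 (CGCATGCG) in 3.81% and 1.43% and in 3.01% and 0.689%. The CCAAT box (CCAAT) stood in 31.8% of shared and 24.8% of unshared beige promoter windows and in 24.2% and 16.6% of CS windows. The order across the lists was not the same for all: YY1 (AAGATGGCG) was found in 1.98% of shared beige and 2.32% of shared CS windows.

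**Figure D4:**
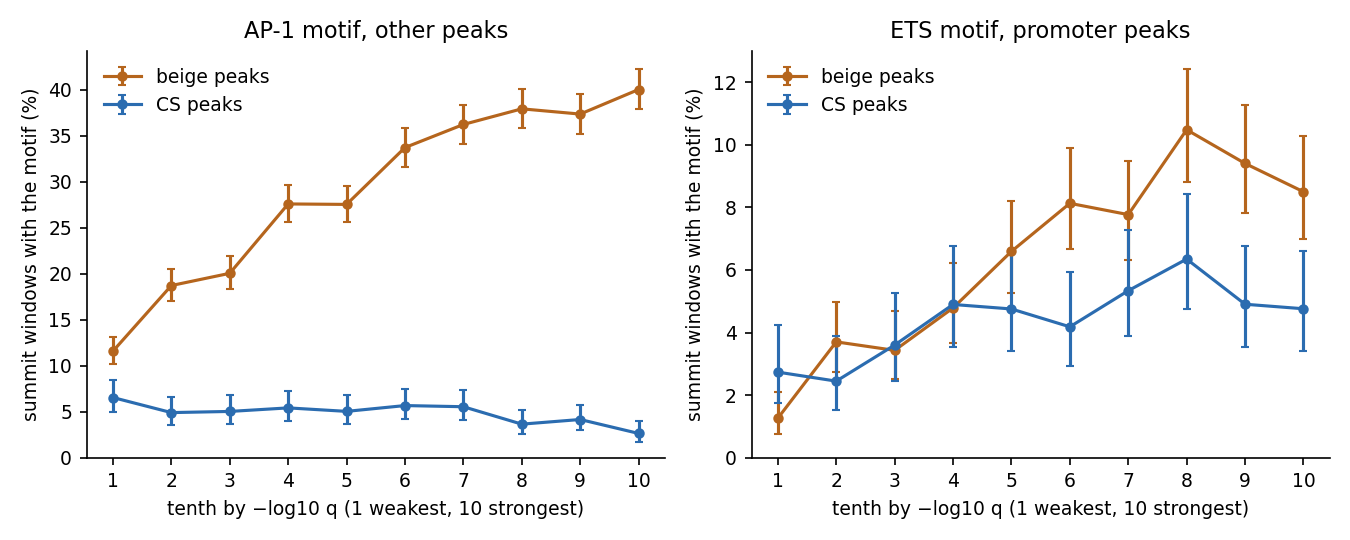
Share of summit windows with the AP-1 sequence at other peaks (left) and with the ETS sequence at promoter peaks (right), in steps of 10% of each list ranked by −log10 q, for beige (brown) and CS (blue) with Wilson 95% intervals. AP-1 runs from 11.6% to 40.0% in beige and from 6.56% to 2.65% in CS.

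Over the 21938 protein-coding genes, 6434 (29.3%) had a promoter peak in both lists, 3748 (17.1%) in beige alone, 743 (3.39%) in CS alone and 11013 (50.2%) in neither. Any TSS of a gene counted, so a gene in both need not have overlapping peaks or peaks at the same TSS. At 5766 of the 6434 (89.6%) the best peak of each list overlapped a peak of the other. With the same number of best peaks 5533 had it in both lists, 2159 only in beige and 1644 only in CS. Of the genes with a CS promoter peak, ranked by −log10 q, 71.2% of the weakest 10% and 99.3% of the strongest 10% also had a beige peak. Of the genes with a beige peak, 30.1% and 92.8% also had a CS peak. Promoters with a peak in both lists were the richest in CpG. A CpG ratio of at least 0.6, observed over that given by base content within 500 bp of the TSS, was found at 81.7% of genes with both, 62.7% with beige alone, 50.9% with CS alone and 19.1% with neither. Divergent promoters, from which a pair of genes is read outward, made up 15.5%, 9.02%, 2.15% and 1.24% of the same states. Nearly all genes with both (99.9%) or beige alone (98.5%) had an ATAC peak at the promoter in Flox, against 82.5% with CS alone. RT had a promoter peak at 12.0% of the genes with both, 0.881% with beige alone and 3.63% with CS alone.

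The strongest promoters common to both lists stood above the 99th percentile of each. Leaving out 4 predicted genes in masked repeats (Gm10800, Gm10718, Gm10717 and Gm10722), they included Add3, which encodes a protein of the membrane skeleton, at −log10 q 170.0 in beige and 53.7 in CS, and Carm1, an arginine methyltransferase, at 141.6 and 43.2. The divergent pair Plag1 and Chchd7 shared a peak at 375.1 in beige and 39.6 in CS. In beige alone the highest values were at Tnrc18 (188.9), Ahnak (145.6), a large scaffold protein, the neighbours Rnd2 and Vat1 (143.2), Rin1 (141.5), Synpo (135.3), which encodes an actin-binding protein, and Lzts2 (130.8). Fam129b (119.6), Zmym5 (119.2) and Mxra8 (116.2) followed. Of these 10, only the Zmym5 peak met no ATAC peak. In CS alone the values were lower in rank. Gm21738 (204.1) and Oasl1 (105.4) lay in masked repeats (91.5% and 89.6% of the window), and from Cd82 (19.4) and Itprid2 (19.0) the list went down to 4931408C20Rik (12.0), 2310009B15Rik (11.5), Pcmtd2 (11.2), Ralgapa1 (10.2), Ccdc88c (9.37) and Scoc (9.36). Cd82 stood at percentile 97.9 of the CS list and Scoc at 89.3.

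A set of 16 autophagy and mitochondrial genes was taken from the study, and each had a promoter peak in both lists. The study shows some of them for their binding in the CS library and again in the beige library. This count is therefore not independent evidence for either list. The set is not every such gene the study names: Atg12 also had both, but Becn1 had beige alone (6.37) and Atg7 and Ppargc1a had neither. The best peaks overlapped at 15 of them, and Uqcr10 was the exception. Among lists of equal size 7 of the autophagy genes kept a beige and 10 a CS peak, and 5 and 6 of the mitochondrial genes. Ulk1, the kinase that starts autophagy, had coinciding summits (0 bp apart, −log10 q 42.2 in beige and 17.1 in CS), and Atg101, its partner, had summits 4 bp apart (23.1 and 5.35). Atg2a, a lipid transfer protein, showed 61.4 in beige and 3.77 in CS, percentiles 96.7 and 54.4 of the lists, with summits 308 bp apart. At Atg3 the distance was 533 bp. Some genes ranked lower in beige: Atg10 stood at percentile 28.0 in beige and 73.7 in CS, Uqcr10 at 32.9 and 79.9, and Atp5a1, a subunit of the ATP synthase, at 54.6 and 81.6. Sdhb of complex II (91.8 and 88.9) and Tfam, which packages mitochondrial DNA (91.8 and 94.8), were high in both. The long ETS sequence was found within 100 bp of both summits at Tfam and Cox8a.

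Matrix and cytoskeletal genes had many beige sites and few CS sites. Of 36 genes of collagens and matrix 4 had a promoter peak in both lists, 21 (58.3%, beside 17.1% of all genes) in beige alone and 0 in CS alone. Lox (71.6), which cross-links collagen, the protease inhibitor Timp1 (39.0), the collagen chaperone Serpinh1 (36.9) and Col1a1 (26.7) led those in beige alone. P4hb, a collagen-modifying enzyme, had 76.4 in beige and 8.49 in CS, and Sparc 33.4 and 3.75. Away from promoters, 147 unshared beige peaks and 12 unshared CS peaks were nearest to these genes, on 32 and 11 of the members. Per Mb of sequence within 100 kb for which a member is the nearest gene this was 36.1 beige and 2.95 CS peaks, beside 10.1 and 3.22 over all genes. Col5a1 had 15 of them in beige and 1 in CS, and Col4a1 10 and 0. Actin, contractile and YAP or SRF target genes, 28 in number, had 12 members in both lists and 13 (46.4%) in beige alone, with 37.9 beige and 3.79 CS unshared other peaks per Mb. Tpm2 (34.6), Srf (28.7), Actg1 (26.2) and Flna (18.9) were the highest in beige alone, and Actb had 192.6 in beige and 14.6 in CS. TGF-beta and BMP signalling genes (23) had 12 in both, 8 in beige alone and 28.0 beige against 2.33 CS peaks per Mb. Skil (242.4 in beige, 10.99 in CS) and Ski (139.8 and 37.7), repressors of SMAD signalling, had promoter peaks in both, and Smad7 had 14 unshared other peaks in beige and 1 in CS. With lists of equal size 17 more matrix, 9 more actin and 1 more TGF-beta and BMP genes had a beige than a CS promoter peak, beside 21, 13 and 8 with the full lists.

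Genes that answer to glucocorticoid and to serum also had many beige sites away from promoters. The beige medium held dexamethasone, a glucocorticoid, for its first 48 h, and whether it bears on these sites was not tested. All 17 glucocorticoid targets had a beige promoter peak, beside 46.4% of all genes. A CS peak was also present at 11 of them and absent at 6 (35.3%, beside 17.1% of all genes). The metallothioneins Mt2 (100.0) and Mt1 (48.9) and the factor Zbtb16 (27.7) led those in beige alone. Per1 (186.5 in beige, 6.58 in CS) and Cdkn1a (75.7 and 3.31) had both, though the best peaks of Cdkn1a did not overlap. Unshared other peaks came to 43.3 per Mb in beige and 5.34 in CS, with 13 beside Sgk1 and 10 beside Fkbp5 in beige, and 2 each in CS. AP-1 and immediate early genes (22) had 15 in both lists (29.3% of all genes) and 5 in beige alone (22.7%, near the 17.1% of all genes), with 40.3 and 4.78 other peaks per Mb. Jun had 120.9 in beige and 12.6 in CS, and Fosl2 117.7 and 4.25. Fosb (22.5), Myc (18.9) and Mafk (42.3) had a promoter peak in beige alone. The AP-1 sequence stood in 27.2% of the matrix sites (20.7 to 34.9), 25.6% of the actin sites, 23.3% of the glucocorticoid sites and 25.4% of the immediate early sites, beside 30.1% of all unshared other beige sites. It stood in 11 of 21 such sites near the genes of lipid storage and lipolysis (52.4%, 32.4 to 71.7). Other fat lists did not share this: it stood in 4 of 23 sites near lipid synthesis genes (17.4%) and 2 of 14 near heat-making effectors (14.3%). For regulators of beige and brown fate it was 12 of 54 (22.2%), for adipogenic factors 19 of 63 (30.2%) and for fat hormones 7 of 23 (30.4%).

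**Figure D5:**
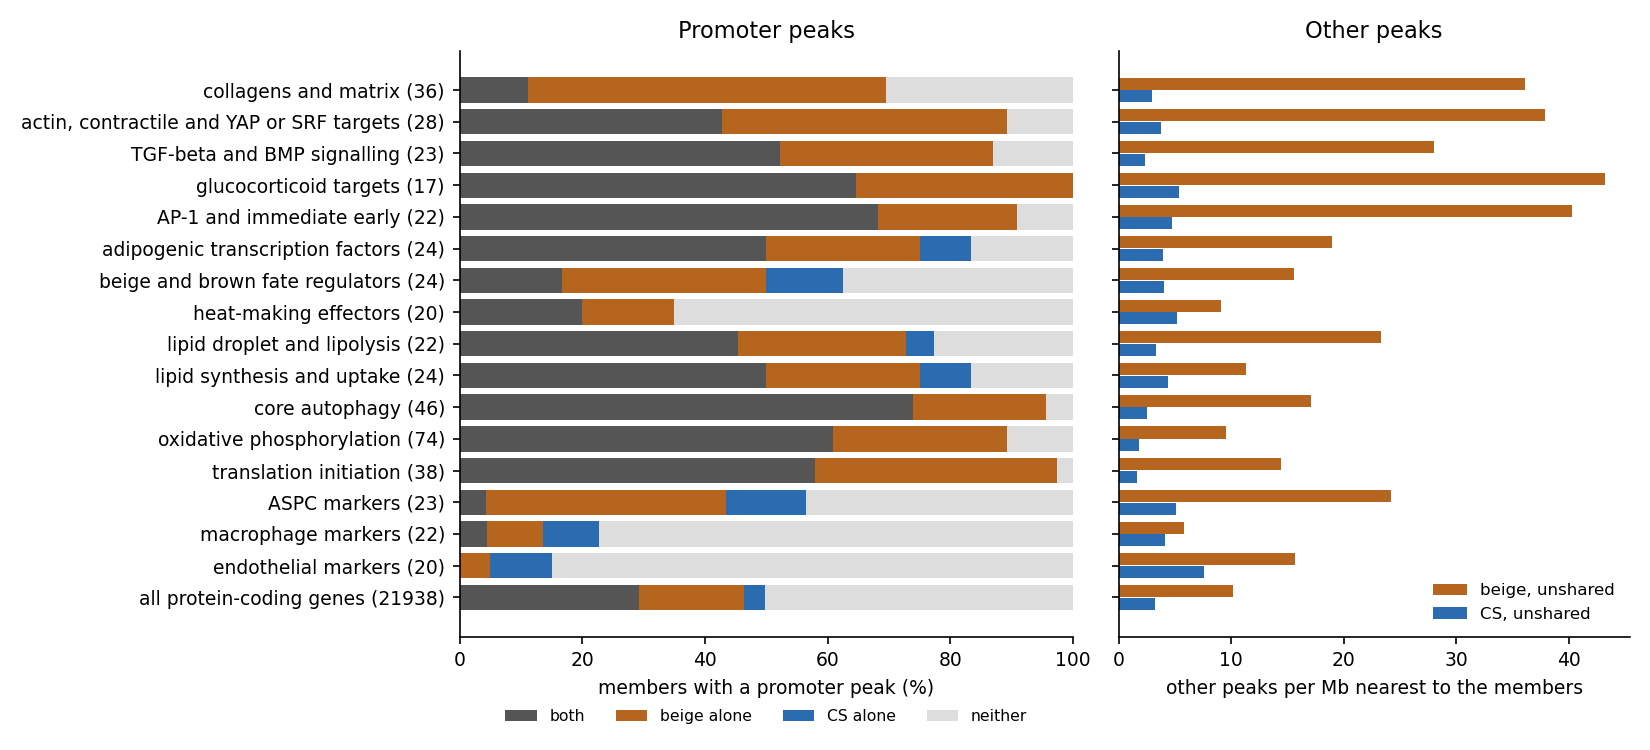
Share of each gene list's members with an Ets1 promoter peak in both lists (dark grey), beige alone (brown), CS alone (blue) or neither (light grey), with the number of members in brackets (left), and unshared other peaks per Mb of sequence nearest to the members, beige above CS (right). Collagens and matrix have 58.3% of members in beige alone and 36.1 beige peaks per Mb, beside 17.1% and 10.1 over all genes.

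The marker genes of adipocytes were not uniformly bound: Lpl (14.95 in beige, 6.08 in CS) and Pparg (3.28 and 7.18) had a promoter peak in both, Fabp4 (9.75) and Plin1 (3.67) in beige alone, and Adipoq, Cidec and Lep in neither. Pparg ranked at percentile 23.0 in beige and 82.4 in CS. Of 24 adipogenic transcription factors 12 had a peak in both lists, 6 only in beige and 2 only in CS, and 4 had neither, beside 29.3%, 17.1%, 3.39% and 50.2% of all genes. Klf4 (51.1 in beige, 3.27 in CS), Klf9 (41.6 and 5.20) and Cebpa (34.2 and 3.17) had both, Ebf1 (32.2), Cebpb (25.5), Rxra (12.0) and Klf15 (9.17) beige alone, and Gata3 (6.58) and Zfp467 (2.49), an activator of fat formation, CS alone. Ebf1 and Rxra each had 11 unshared other peaks in beige and 1 in CS. Among 24 regulators of beige and brown fate 4 were in both and 8 (33.3%) in beige alone, with Zfp516 (42.3), Tbx15 (41.6), Twist1 (20.6) and Nfic (17.2) the highest, and 3 in CS alone, Irf4 (5.15), Cited1 (2.87) and Ppargc1b (2.36). Esrra, a nuclear receptor of mitochondrial genes, had 96.6 in beige and 25.7 in CS, and Prdm16 and Ppargc1a had no promoter peak in either. Unshared other peaks came to 19.0 per Mb in beige and 3.91 in CS near the adipogenic factors. Near the fate regulators they came to 15.6 and 4.04, beside 10.1 and 3.22 over all genes. With the same number of best peaks as many fate regulators had a beige as a CS peak, and 1 more adipogenic factor had a beige than a CS peak, beside 5 and 4 with the full lists.

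Of 20 heat-making effectors 4 had a peak in both lists and 3 in beige alone, and 13 had neither (65.0%, beside 50.2% of all genes), among them Ucp1, Cidea and Dio2. Gk, glycerol kinase (77.0 in beige, 6.80 in CS), Atp2a2, the SERCA calcium pump (24.9 and 5.95), and Slc25a20 (14.0 and 6.27) had both, and the creatine transporter Slc6a8 (18.9) and Cox7a1 (11.6) beige alone. Other peaks near these genes came to 9.13 per Mb in beige and 5.22 in CS, beside 10.1 and 3.22 over all genes. In lipid storage and lipolysis (22 genes) 10 (45.5%) were in both and 6 (27.3%) in beige alone, again beside 29.3% and 17.1%. Plin4 (41.4 in beige, 3.53 in CS) and Hilpda (35.4 and 3.16) had both, Cavin1 (62.6) and the lipase Pnpla2 (11.4) beige alone, and Mgll (3.799) CS alone. In lipid synthesis and uptake (24) 12 were in both and 6 in beige alone. Acsl1 (78.7 in beige, 20.4 in CS), Acaca (78.4 and 17.9) and Fasn (57.9 and 7.85) had both, and Pck1 (2.40) and Cd36 (1.49) CS alone. Among 16 fat hormones 6 (37.5%) were in beige alone and 2 (12.5%) in both, Nampt (92.7 in beige, 19.7 in CS) and Metrnl (12.5 and 4.51). Unshared other peaks per Mb were more frequent here than near the effectors. They came to 23.4 in beige and 3.34 in CS for lipid storage, 11.3 and 4.42 for lipid synthesis, and 26.85 and 7.00 for the hormones. With equal lists 1 more gene of lipid storage, 2 more of lipid synthesis and 3 more hormones had a beige than a CS peak, beside 5, 4 and 6 with the full lists.

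Signalling and housekeeping groups mostly had peaks in both, which 29.3% of all genes had, while 17.1% of all genes had a peak in beige alone. Insulin signalling (20 genes) had 15 in both, with Pik3ca at 121.8 in beige and 7.84 in CS and Akt2 at 109.7 and 4.21, and 3 in beige alone. Adrenergic and cAMP signalling (25) had 16 in both and 5 (20.0%, near the 17.1% of all genes) in beige alone. Nr4a1 stood at 107.7 in beige and 1.84 in CS, Pde3b was in CS alone (3.65) and the receptor Adrb3 in neither. With equal lists 15 insulin genes had a beige and 16 a CS peak, and 16 and 17 of the adrenergic genes, so the direction turned. Clock genes (22) had 14 in both, with Bhlhe40 at 260.3 in beige and 5.76 in CS, and 6 (27.3%) in beige alone. With equal lists 16 clock genes had a beige and 14 a CS peak. Of 46 core autophagy genes 34 (73.9%) were in both, 10 (21.7%, near the 17.1% of all genes) had only a beige peak and 0 only a CS peak. Wipi1 (156.2 in beige, 23.8 in CS) and Tfe3 (105.6 and 4.22) had both, and Wdr45 (52.2) and Sqstm1 (31.4) had beige alone. The direction did not stand with lists of equal size: 29 core autophagy genes then had a beige and 34 a CS peak. Atg7 had no promoter peak and 16 unshared other peaks in beige, against 2 in CS. Oxidative phosphorylation (74 genes) had 45 in both and 21 (28.4%) in beige alone, led by Atp5b (42.9) and Ndufv1 (30.7), and with equal lists 3 more genes had a beige than a CS peak. Translation initiation (38) had 22 in both and 15 (39.5%) in beige alone, and the spliceosome (45) 29 and 14 (31.1%). With equal lists 12 and 10 more of their members had a beige than a CS peak.

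ETS factor genes, Ets1 included, had promoter peaks in both lists at 12 of 19 members (63.2%, beside 29.3% of all genes). Only in beige a peak was found at 2 (10.5%, beside 17.1% of all genes). Ets1 had −log10 q 25.3 in beige and 4.31 in CS, with 10 unshared other peaks in beige and 2 in CS. Gabpa, an ETS factor of mitochondrial and housekeeping promoters, had 38.7 and 16.4, and Etv4 (29.1) and Etv1 (3.09) had beige alone. Of 32 cell cycle genes 19 (59.4%) were in both and 10 (31.2%) in beige alone, among them E2f1 (27.1) and Cdk1 (18.7). Interferon-induced genes (24) had 7 members (29.2%) with a peak in both lists, near the 29.3% of all genes. Beige alone held 2 (8.33%, beside 17.1% of all genes) and CS alone 2 (8.33%, beside 3.39%). With equal lists beige minus CS members came to 0 for ETS factors, 6 for the cell cycle and -5 for interferon-induced genes, beside 2, 10 and 0 with the full lists.

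Markers of other cells were looked up because the preparations differ in the cells they can hold. Among 23 markers of adipose stem and progenitor cells (ASPC) 1 had a promoter peak in both lists, 9 (39.1%) in beige alone, with Pdgfrb (47.5), Pdgfra (16.9), Mfap5 (14.8) and Fbn1 (14.0) the highest, and 3 in CS alone, Cd34 (3.66), Cd81 (3.33) and Cd55 (2.87), beside 17.1% and 3.39% of all genes. The defining progenitor genes Dpp4 and Pi16 had neither. Mural markers had 3 of 10 in beige alone, Acta2 (13.1), Myh11 (4.19) and Tagln (2.62), and none in CS. Macrophage markers had 1 of 22 with both, 2 with beige alone and 2 with CS alone, Aif1 (5.95) and Laptm5 (1.93), with Adgre1 and Ptprc in neither. Lymphocyte markers had 2 of 24 in beige alone and 4 in CS alone, with Cd3e in neither. Endothelial markers had 1 of 20 in beige alone, Eng (3.28), and 2 in CS alone, Tie1 (3.66) and Cdh5 (2.73). Mesothelial markers had 2 of 10 in beige alone, Schwann markers 3 of 10 with both, 2 with beige alone and 1 with CS alone, skeletal muscle markers 2 of 10 in both, and epithelial markers 0 of 10. With equal lists 7 ASPC markers had a beige and 4 a CS peak, 1 and 0 of the mural, 2 and 3 of the macrophage, 1 and 4 of the lymphocyte, 0 and 2 of the endothelial and 1 and 0 of the mesothelial markers. Across these marker lists unshared other beige peaks ran from 5.83 per Mb (macrophage) to 28.55 (mural), with 24.2 for ASPC, beside 10.1 over all genes. The CS values of these 3 lists were 4.16, 15.2 and 5.15, beside 3.22 over all genes. An Ets1 peak at a gene does not show that the gene is expressed, and what other cells add to either list was not tested.

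The genes with the most non-promoter sites differed between the lists. In beige they were Zmiz1 (21 unshared peaks), a coregulator, Tgfbr3 (19), the TGF-beta type III receptor, Med13l (18), Gse1 (17), and with 16 each Frmd4a, Sash1, Tns1, which encodes tensin of focal adhesions, Thbs2, a matrix protein, and Atg7, followed by Irf2bp2 (15). Zmiz1 had 3 unshared peaks in CS, and Tgfbr3, Sash1 and Thbs2 had 0. In CS they were Sfi1 (22, with 2 in beige), C130026I21Rik (12), Apba2 (11), Vmn1r2, Cdh4, Dnah11 and St6galnac3 (8 each), and Fam155a, Mroh2a and Grin2a (7 each). Of these 10, only Cdh4, St6galnac3, Grin2a and Sfi1 had an unshared peak in beige, and 7 had no promoter peak in either list. The counts were not divided by the length of sequence near each gene, and regions of excess signal were not removed from them. Lengths of the named genes ran from 5.69 kb (Irf2bp2) to 596.3 kb (Frmd4a) in beige. In CS they ran from 5.69 kb (Vmn1r2) to 565.3 kb (Fam155a). Shared non-promoter peaks were few per gene, with 8 beside Pdia4 and 5 beside Gm47283 on chromosome Y, then 3 each beside Wnt7b, Chd2, Rab11fip4, Tmem267, Wnt11, Scaf8, D5Ertd579e and Rbx1. In all, 82 genes had 10 or more unshared other beige peaks and 3 had 10 or more unshared other CS peaks.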

How the data were processed

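Peak lists of 1 library per group were analysed. Per the labels and the study's methods, the authors trimmed reads with trimmomatic, aligned them to the mouse build mm10 (GRCm38) using BWA, then ran MACS2 on every library, keeping peaks with a q-value under 0.05; SAMtools is also named in the submitters' processing notes. The control given to MACS2 was not given in the sources used here. Each deposited list holds peak positions and summit offsets, the fold enrichment (a linear ratio) and the −log10 of the q-value. These depend on depth, which peak lists do not hold; the study states more reads for the beige than for the CS library, totals that were not used here, and a value was ranked within its list and never divided by one of the other list. Scores and −log10 p were not used.

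Overlaps, distances and letters at summits were computed in Python 3.11.15 (numpy 2.4.6, scipy 1.17.1, pandas 2.3.3, matplotlib 3.10.9), with the overlap code tested on simulated data, GENCODE M21 genes and the GRCm38.p6 sequence with its soft-masked repeats. Other peaks within 100 kb went to the gene with the nearest TSS. The members, the 32 gene lists and the 17 sequences searched were chosen with earlier results of these data known. Named are up to 4 members per list and class by −log10 q, the 10 leading genes of each class, and the study's genes; adipocyte markers were fixed with the lists, and members named for absence or for their number of other peaks were picked after their values were seen. Printed sequences came from the peaks highest by −log10 q in each set, off chromosome 18, and for shared ETS promoters and the CS promoter (in Flox ATAC) with under 50% masked bases. Alternatives were overlap, q, list size, promoter width, ATAC and repeats. The H3K27ac lists of EA+/+ and EAKO and the ATAC list of EAKO were counted only. Some list members are not reported here.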

Additional observations from a re-analysis of the deposited data

How the results depend on the processing

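The 4 overlap shares are given in the order beige promoter, CS promoter, other beige and other CS, with main values of 49.4%, 79.1%, 5.37% and 13.4%. An overlap of at least 50% of both peaks gave 33.4%, 53.2%, 3.05% and 7.54%. Summits within 100 bp gave 28.6%, 45.6%, 3.18% and 7.81%. A q-value of 0.001 gave 45.9%, 85.0%, 4.67% and 18.6%. The same number of best peaks gave 62.2%, 67.6%, 8.80% and 8.51%, with 2159 genes in beige alone and 1644 in CS alone. A promoter of 3 kb gave 42.7%, 74.2% and, for other CS peaks, 12.5%. Peaks in Flox ATAC alone gave 50.9%, 84.4%, 5.03% and 51.8%. Leaving out mostly masked summits, chosen after the data were seen, gave 4.58% and 14.6% for other beige and CS peaks. In each of these settings the promoter shares were above those of other sites. Gene counts stayed within 1.5 times the main value except for the 2 named. Members in beige minus members in CS turned negative with equal lists for core autophagy (-5), insulin and glucose uptake (-1) and adrenergic and cAMP signalling (-1). The 50 bp window moved 116 of 136 sequence shares and q 0.001 moved 20, by their intervals. No paired analysis was possible because each group had 1 library, and no replicate could be left out.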
